A study of Homo sapiens with 4 samples.

Results

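The 10 genes examined here form the pathway that runs from leukemia inhibitory factor to its feedback inhibitors, and they were read in hepatocellular carcinoma (HCC) cells treated with arsenic trioxide (ATO). They were LIF, LIFR, IL6ST, IL6R, JAK1, JAK2, TYK2, STAT3, SOCS2 and SOCS3. The members were the 10 genes named, of 19775 genes on the array, and every probe set whose annotation gave 1 of these symbols and no other gene was kept, whether bright or dim. This gave 36 of the 54613 probe sets that are not controls, and no probe set named a member together with another gene. The arrays were of the type Affymetrix U133 Plus 2.0. Here a probe set, a set of short oligonucleotides that match the same transcript, gives a single reading.

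The groups were Huh7 cells given 3 μM ATO for 7 days, Huh7 negative control (NC) cells given DMSO, Hep3B cells given 3 μM ATO for 7 days and Hep3B NC cells given DMSO, with 1 profile in each group and 4 profiles in all. Huh7 and Hep3B are established human HCC lines, each of which stands for 1 tumor, and no other allele or agent is named in the labels. A ratio within 1 line therefore had no error of its own, and it is not stated whether a profile was 1 array or the mean of several. The cells were read in bulk, so fewer cells making an RNA and less of that RNA per cell cannot be told apart.

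Leukemia inhibitory factor and interleukin 6 are secreted cytokines that share the signal-transducing receptor chain gp130, the product of IL6ST. The receptor complex activates Janus kinases bound to its inner side, which phosphorylate STAT3, and STAT3 then enters the nucleus and turns on target genes. Among the targets are the SOCS genes, whose proteins bind the receptors or kinases and dampen the signal. In liver cells the same route drives the acute phase response.

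Readings are linear intensities, and their medians over all probe sets were 16.3 and 15.9 in ATO and NC Huh7 cells and 16.03 and 15.8 in ATO and NC Hep3B cells. A probe set was called bright here if it lay at or above the median of its profile in all 4 profiles, which held for 16 of the 36. All 8 markers of the hepatocyte lineage were bright, with summed intensities of 18563 to 42332 in ATO cells and 21987 to 54978 in NC cells, whereas those of 3 blood markers summed to at most 45.9. Of 3 endothelial markers, which summed to at most 36.01, PECAM1 was bright, and of 4 fibroblast markers COL1A1 and PDGFRB were, with summed intensities of 121 to 141 in ATO cells and 138 to 139 in NC cells. AFP, a fetal liver protein that both lines are known to secrete, read 62.1 and 91.8 in the ATO and NC profiles labelled Huh7, against 1646 and 3567 in those labelled Hep3B. ALB, TTR and APOH, other products of hepatocytes, were also far lower in the profiles labelled Huh7, with 155, 48.1 and 313 in NC cells, against 12803, 1704 and 9788 in Hep3B NC cells. Of the remaining hepatocyte markers in NC cells, APOA1 and TF were lower in Huh7, at 1046 and 6610 against 4240 and 12576 in Hep3B. SERPINA1 and FGB were higher in Huh7, at 12710 and 1012 against 10091 and 210 in Hep3B. The identity of the lines was not tested here, and every value below that is given for Huh7 or Hep3B follows the labels. Beside the treatment labels, 8 genes known to answer to arsenic were read after values had been seen, so they describe the profiles and do not test the labels. All 8 were higher in ATO cells in both lines, against 32% of all genes read from 1 probe set each. Above 1.5-fold in both were 7, against 0.804%. Among the 7 was HMOX1, the heme-degrading enzyme, at 2507 in ATO and 303 in NC Huh7 cells, and 479 in ATO and 96.5 in NC Hep3B cells. Poly-A control transcripts added before labeling were lower on the ATO profiles with log2 ratios that averaged -0.32 ± 0.22 in Huh7 and -0.35 ± 0.36 in Hep3B (SD over 12 control probe sets). Scaling to them would raise every log2 ratio by those amounts, and ratios below are given without that scaling unless it is named.

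The study measured LIF and JAK1 mRNA with primer pairs as well, and those readings were not analysed here. The primers are shown because they define what was meant by the transcript at the head of the pathway and by its kinase. They are written 5′ to 3′ in lower case. LIF lies on chromosome 22 (30240453 to 30246759) and JAK1 on chromosome 1 (64833229 to 65067746) of GRCh38.p14.
LIF forward: gatgttcctgccttagagtcatc
LIF reverse: cccacagggtacattcatca
JAK1 forward: atttgggttctcggcaatac
JAK1 reverse: ggtcatccttgacggtgtaa

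RefSeq promoters on GRCh38.p14 were matched for 8 of the 10 genes, all but LIF and SOCS2, with 16 start sites in all. The 250 bases before the outermost start are shown for SOCS3, the feedback gene whose probe sets differed most in Huh7, and for JAK1, the kinase whose bright probe sets moved together. Both genes lie on the minus strand, at chr17:78360926-78361175 and chr1:65067747-65067996.
SOCS3 upstream: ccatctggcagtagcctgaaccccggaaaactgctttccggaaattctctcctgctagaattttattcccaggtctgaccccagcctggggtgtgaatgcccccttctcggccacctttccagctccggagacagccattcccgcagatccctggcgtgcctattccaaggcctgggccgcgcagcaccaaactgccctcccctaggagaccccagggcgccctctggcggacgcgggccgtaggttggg
JAK1 upstream: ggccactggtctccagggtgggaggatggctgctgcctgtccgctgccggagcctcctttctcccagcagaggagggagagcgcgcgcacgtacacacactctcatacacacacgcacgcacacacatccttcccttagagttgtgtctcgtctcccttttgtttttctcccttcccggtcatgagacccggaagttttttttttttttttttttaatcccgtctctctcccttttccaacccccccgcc

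The letters TTCNNNGAA, a spacing that STAT proteins are known to bind, were searched in the 250 bases before each start, and read the same on both strands. They were found before 2 of the 16 member starts, and in 6.57% of the 35116 promoters of the same length. Both starts belonged to LIFR, with TTCCTTGAA lying 165 bases and TTCATCGAA 182 bases upstream of inner start sites. The narrower form TTCCNGGAA, every match of which also matches TTCNNNGAA, was found before 0 of the 16 starts and in 0.968% of all promoters. Neither printed window held either form.

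LIF, the secreted ligand, had the largest ratio of the 36 probe sets in each line. It was read by 1 probe set, 205266_at. Its intensity was 87.7 in ATO Huh7 cells and 32.4 in NC Huh7 cells, and 52.9 in ATO Hep3B cells and 26.1 in NC Hep3B cells. Both ATO profiles were above both NC profiles, and all 4 were above the median of their profile. ATO over NC gave 2.71 for Huh7 and 2.03 for Hep3B. Averaged on the log2 scale this was 1.23 ± 0.30 (SD, n = 2 lines). Among the 11027 probe sets within 2-fold of its brightness, 99.7% had a lower ratio in Huh7 and 98.4% in Hep3B. In limma, with the cell line in the model and log2(intensity + 16) as the scale, ATO minus NC was 0.91 ± 0.13 (SE), where the adjusted p was 0.576 over all probe sets and the unadjusted p 0.009. The change in LIF therefore did not pass the test, which has 1 residual degree of freedom, although its direction was the same in both lines.

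**Figure D1:**
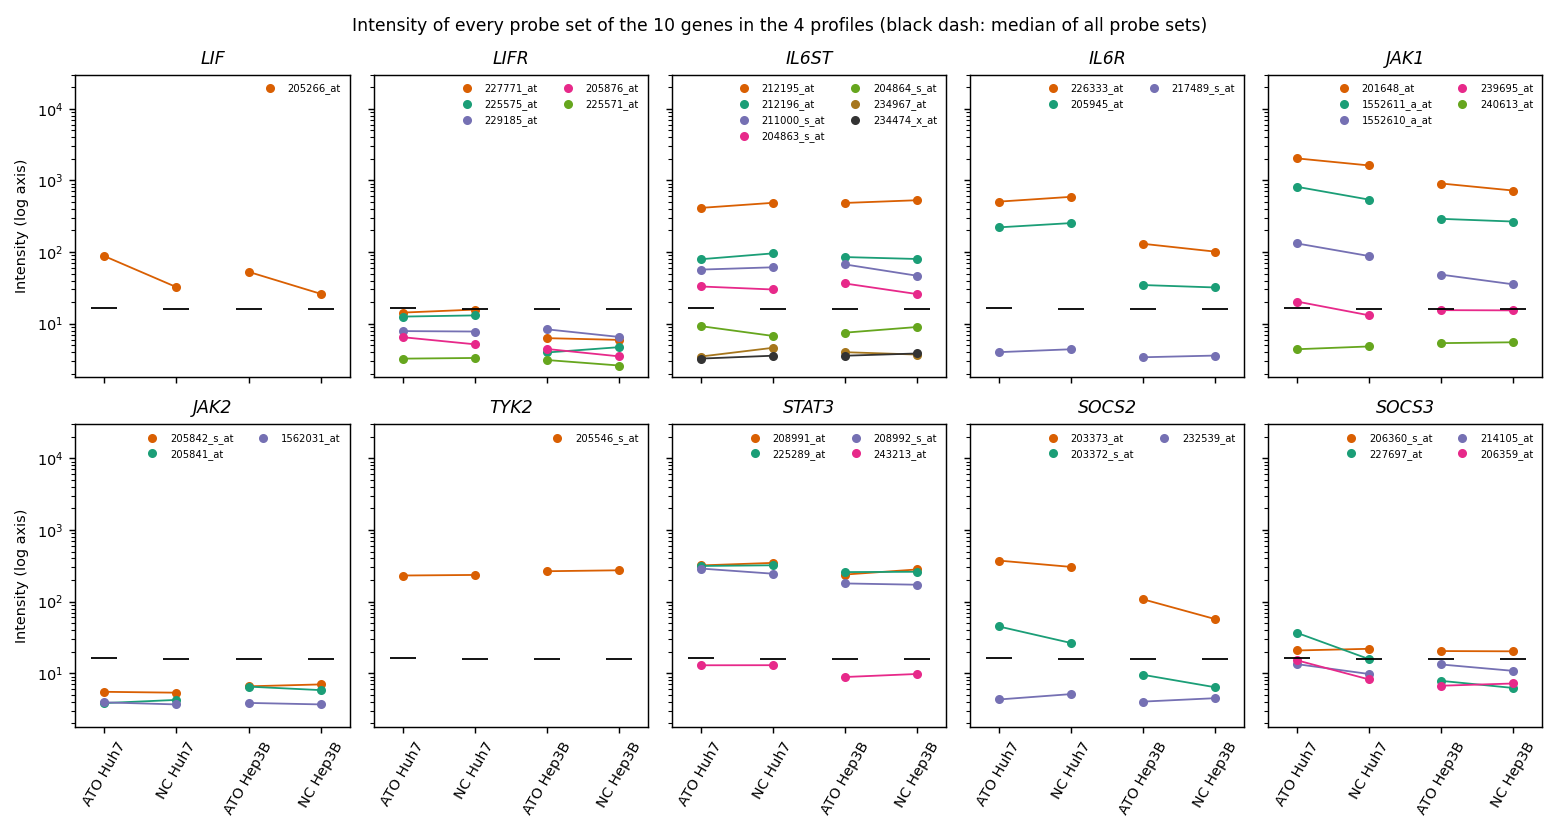
Intensity (log axis) of every probe set of the 10 genes in the 4 profiles, 1 panel per gene and 1 line per probe set and cell line, with a black dash at the median of all probe sets in each profile. LIF stood at 87.7 and 52.9 in ATO cells, against 32.4 and 26.1 in NC cells, LIFR and JAK2 lay below the dash throughout, and the bright probe sets of IL6R and JAK1 were higher in Huh7 than in Hep3B.

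LIFR, the chain that binds the ligand and pairs with gp130, had no probe set at or above the median in any profile. Its 5 probe sets read between 2.61 and 15.7 over all profiles. The probe set 227771_at read 14.3 in ATO and 15.7 in NC Huh7 cells, and 6.28 in ATO and 5.94 in NC Hep3B cells. Ratios ranged from 0.908 to 1.26 in Huh7 and from 0.843 to 1.28 in Hep3B, so the threshold of 1.5 was not reached by any. Only 205876_at moved by a like amount in both lines, with 6.48 in ATO and 5.16 in NC Huh7 cells, 4.44 in ATO and 3.50 in NC Hep3B cells, and ratios of 1.26 and 1.27. At these intensities such ratios rest on differences of less than 2 units.

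IL6ST, which encodes gp130, was read by 7 probe sets, 4 of them bright. Its brightest, 212195_at, read 413 in ATO and 486 in NC Huh7 cells, and 484 in ATO and 528 in NC Hep3B cells. The ratios were 0.850 and 0.916, and scaling to the poly-A controls turned them above 1 (log2 0.08 and 0.22). Another bright probe set, 211000_s_at, read 56.9 in ATO and 61.2 in NC Huh7 cells, and 67.2 in ATO and 46.7 in NC Hep3B cells. The Hep3B ratio of 1.44 for that probe set thus stood against 0.916 for the brightest one, which reads the same gene in the same RNA. In 204863_s_at the ratios were 1.10 and 1.41, and in 212196_at they were 0.828 and 1.06. The SD of log2 ratios over the 4 bright probe sets was 0.19 in Huh7 and 0.32 in Hep3B, against medians of 0.16 and 0.18 over the 5373 genes with at least 2 bright probe sets. The bright probe sets of IL6ST thus held ratios on both sides of 1 in each line, and no direction was assigned to the gene. Its 3 dim probe sets read between 3.26 and 9.25, with ratios of 0.756 to 1.37 in Huh7 and 0.833 to 1.08 in Hep3B.

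IL6R, the chain that binds interleukin 6, had 2 bright probe sets that agreed in direction within a line but not between lines. In 226333_at the intensity was 505 in ATO and 589 in NC Huh7 cells, and 130 in ATO and 101 in NC Hep3B cells. In 205945_at it was 221 in ATO and 253 in NC Huh7 cells, and 34.6 in ATO and 32.0 in NC Hep3B cells. Both were lower with ATO in Huh7, at ratios of 0.857 and 0.872, and higher in Hep3B, at 1.29 and 1.08, and the Huh7 ratios turned above 1 when scaled to the poly-A controls. The SD over the 2 log2 ratios was 0.02 in Huh7 and 0.18 in Hep3B. The dim 217489_s_at had ratios of 0.911 and 0.947.

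JAK1, a kinase that gp130 uses to pass the signal on, was higher in ATO cells in all of its 3 bright probe sets and in both lines. The brightest, 201648_at, read 2027 in ATO and 1615 in NC Huh7 cells, and 904 in ATO and 721 in NC Hep3B cells. Its ratio was 1.26 in Huh7 and 1.25 in Hep3B, so the lines differed little, and in limma ATO minus NC was 0.32 ± 0.05 (SE), where the adjusted p was 0.576 and the unadjusted p 0.010. The probe set 1552610_a_at read 132 in ATO and 87.9 in NC Huh7 cells, and 48.3 in ATO and 35.4 in NC Hep3B cells, with ratios just under 1.5 in Huh7 and of 1.37 in Hep3B. In the third, 1552611_a_at, it was 813 in ATO and 539 in NC Huh7 cells, and 290 in ATO and 266 in NC Hep3B cells, with ratios of 1.51 and 1.09. None of the 3 passed 1.5 in both lines, and no limma test passed 0.05 after adjustment. The size of the change differed by probe set, with SDs of 0.15 and 0.16 on the log2 scale in Huh7 and Hep3B. Of the dim pair, 239695_at showed ratios of 1.56 and 1.01 in Huh7 and Hep3B, and 240613_at showed 0.915 and 0.973.

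JAK2, another kinase of the receptor complex, was dim in all 3 of its probe sets, with intensities of 3.67 to 6.99. Its ratios ranged from 0.903 to 1.07 in Huh7 and from 0.940 to 1.12 in Hep3B. TYK2, the remaining kinase of this receptor family, was read by 1 bright probe set, 205546_s_at. It read 231 in ATO and 235 in NC Huh7 cells, and 265 in ATO and 274 in NC Hep3B cells. The ratios were 0.982 and 0.970, and the poly-A scaling placed both above 1.

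STAT3, the transcription factor at the end of the kinase step, had ratios between 0.849 and 1.18 in its 3 bright probe sets. In 208991_at the intensity was 320 in ATO and 347 in NC Huh7 cells, and 239 in ATO and 281 in NC Hep3B cells, with ratios of 0.922 and 0.849. In 225289_at it was 314 in ATO and 321 in NC Huh7 cells, and 258 in ATO and 261 in NC Hep3B cells, with ratios of 0.978 and 0.990. In 208992_s_at it was 289 in ATO and 245 in NC Huh7 cells, and 179 in ATO and 172 in NC Hep3B cells, with ratios of 1.18 and 1.04. The probe sets therefore split in direction, and scaling to the poly-A controls placed all 3 above 1 in both lines. The dim 243213_at had ratios of 0.997 and 0.907. The arrays read STAT3 RNA and not its phosphorylation.

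SOCS2, a feedback inhibitor best known from growth hormone signaling, was higher in ATO cells in both of its probe sets above the dimmest range. The bright probe set 203373_at read 374 in ATO and 305 in NC Huh7 cells, and 108 in ATO and 57.0 in NC Hep3B cells. Its ratio was 1.23 in Huh7 and 1.89 in Hep3B, so it passed 1.5 in Hep3B alone. The probe set 203372_s_at read 45.0 in ATO and 26.4 in NC Huh7 cells, and 9.50 in ATO and 6.37 in NC Hep3B cells, with ratios of 1.70 and 1.49. The Hep3B ratio lay just outside the threshold, in cells where this probe set was below the median. In limma the adjusted p was 0.586 for the bright probe set and 0.593 for the other, and the dim 232539_at had ratios of 0.842 and 0.896.

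SOCS3, the feedback inhibitor that binds gp130 and JAK, was the gene whose probe sets disagreed most in Huh7, with a SD of 0.56 on the log2 scale over its 4 probe sets. The brightest by its mean, 206360_s_at, was flat, with 20.8 in ATO and 21.9 in NC Huh7 cells, and 20.4 in ATO and 20.2 in NC Hep3B cells. These values lay only a little above the profile medians of 15.8 to 16.3. The probe set 227697_at read 36.6 in ATO and 15.7 in NC Huh7 cells, and 7.83 in ATO and 6.23 in NC Hep3B cells, with ratios of 2.33 and 1.26. In 206359_at the intensity was 15.2 in ATO and 8.19 in NC Huh7 cells, and 6.70 in ATO and 7.20 in NC Hep3B cells, with ratios of 1.85 and 0.931. The remaining probe set, 214105_at, had ratios of 1.37 and 1.23. In Huh7, 3 of the 4 probe sets were thus higher in ATO cells and the one that would represent the gene by brightness was not. None of the 3 was bright, and no limma test of them passed 0.05 after adjustment, the lowest adjusted p being 0.595 for 214105_at.

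**Figure D2:**
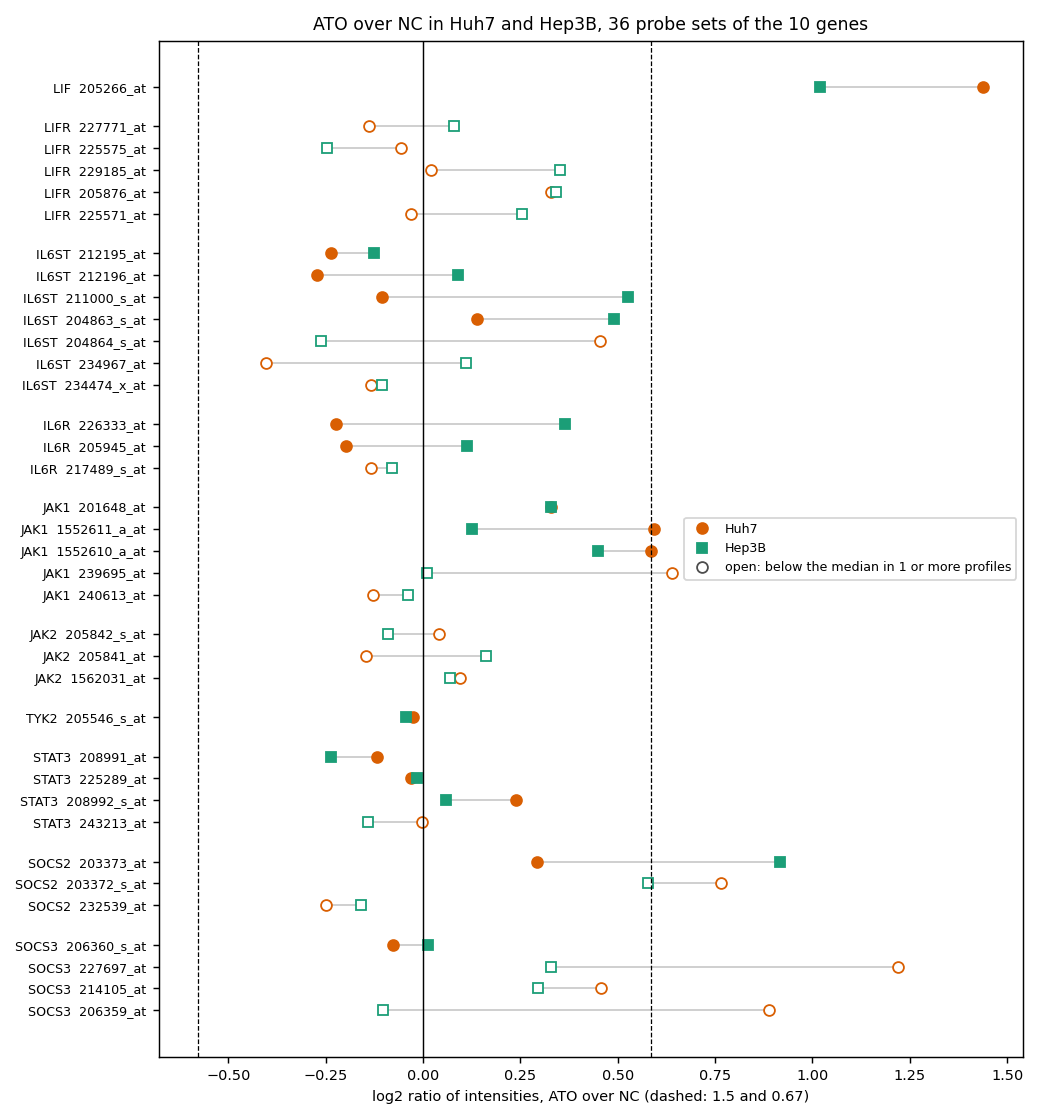
Log2 ratio of intensities, ATO over NC, for the 36 probe sets of the 10 genes, in Huh7 (circles) and Hep3B (squares), with open symbols for probe sets below the median in at least 1 profile and dashed lines at 1.5 and 0.67. LIF lies past 1.5 in both lines (log2 1.44 and 1.02), and the 3 bright probe sets of JAK1 lie above 0 in both. The 4 probe sets of SOCS3, of which 1 is bright, spread from -0.08 to 1.22 in Huh7. Scaled to the poly-A controls, all 16 bright probe sets would lie above 0 in both lines.

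Over the 36 probe sets, 1 had a ratio above 1.5 in both lines, that of LIF, against 0.529% of all probe sets. Below 0.67 in both lines there were 0 of 36, against 0.522%. Among the 16 bright ones 1 was above 1.5 in both and 0 below 0.67, against 0.822% and 0.814% of bright probe sets. In Huh7 alone 6 of the 36 were above 1.5 (2.85% of all probe sets) and in Hep3B 2 were (4%), and below 0.67 there was none in Huh7 (2.81%) or in Hep3B (4.01%). The 6 in Huh7 belonged to LIF, JAK1 with 2, SOCS2 and SOCS3 with 2, and the 2 in Hep3B to LIF and SOCS2. With 1 probe set per gene, LIF was the only one of the 10 above 1.5 in both lines (0.804% of all genes) and 0 were below 0.67 (0.587%).

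At any size, 14 of the 36 probe sets were higher in ATO cells in both lines (30.7% of all probe sets), 10 were lower in both (24.1%) and 12 moved in opposite directions (44.6%). Among the 16 bright ones the counts were 7 higher, 4 lower and 5 opposite, against 31.8%, 26.4% and 41.7% of bright probe sets. The 7 higher were those of LIF and SOCS2, 3 of JAK1, 1 of IL6ST and 1 of STAT3. By their median, the log2 ratios of the 36 were -0.01 in Huh7 and 0.08 in Hep3B, against 0.02 and 0.02 over all probe sets, so the genes did not move as a group by their median. Scaling to the poly-A controls changed the sign of the mean log2 ratio in 16 of the 36 and in 7 of the 16 bright ones, and all 16 bright ones were then higher in both lines. That scaling raises the ratios of all probe sets, and its share over all bright ones is not given here.

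Across the lines, limma called 0 of the 36 probe sets for ATO minus NC at an adjusted p of 0.05, and 0% of all 54613. Without adjustment 3 of the 36 had a p under 0.05, against 8.56% of all probe sets. Those 3 were the LIF probe set and 2 of JAK1, 201648_at and 1552610_a_at, all higher in ATO cells. The smallest adjusted p over the whole table was 0.576.

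The cell lines themselves differed in several of these genes. In the same limma fit, Huh7 minus Hep3B was called for 10 of the 36 probe sets, all higher in Huh7 (6.84% of all probe sets), and 0 were lower (6.99%), with 13.8% of all probe sets called in either direction. Read from the brightest probe set, 4 of the 10 genes were called, against 19.7% of all genes. Each line was represented by 1 ATO and 1 NC profile. With treatment in the model, the 1 residual degree of freedom measures how far ATO minus NC differed between the lines. limma moderates this with the spread over all probe sets, and the p-values say nothing of cultures. The genes were IL6R and JAK1, LIFR and SOCS2, and 1 probe set of STAT3. No probe set of LIF, IL6ST, JAK2, TYK2 or SOCS3 was called.

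Of the receptors, IL6R differed most. Huh7 over Hep3B was 3.88 in ATO cells and 5.82 in NC cells for 226333_at, and 6.38 in ATO and 7.92 in NC cells for 205945_at. The limma differences were 2.10 ± 0.17 and 2.36 ± 0.09 on the log2(intensity + 16) scale (SE), with adjusted p of 0.030 and 0.020. Both ratios were smaller in ATO cells, in which IL6R was lower in Huh7 and higher in Hep3B, and that difference between lines was not tested. For LIFR, 227771_at and 225575_at were called, with differences of 0.49 and 0.50 and adjusted p of 0.043 and 0.036 in limma, at intensities below the median throughout.

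JAK1 was higher in Huh7 in each of its bright probe sets. Huh7 over Hep3B was 2.24 in ATO and 2.24 in NC cells for 201648_at, 2.80 and 2.02 for 1552611_a_at, and 2.73 and 2.48 for 1552610_a_at. The adjusted p in limma were 0.020, 0.048 and 0.026. For SOCS2, 203373_at was 3.47-fold higher in Huh7 in ATO cells and 5.35-fold in NC cells (adjusted p = 0.031 in limma), and 203372_s_at 4.73-fold and 4.15-fold (adjusted p = 0.039). In STAT3, 208992_s_at was 1.61-fold and 1.43-fold higher (adjusted p = 0.049 in limma), whereas the adjusted p of its other bright probe sets were 0.074 and 0.076. The STAT3 call was lost with a robust prior, with the poly-A scaling and with an offset of 64 (adjusted p of 0.058, 0.064 and 0.095 in limma), and that of JAK1 1552611_a_at with a robust prior (adjusted p = 0.057). With an offset of 64, 2 of the 10 calls remained, IL6R 205945_at and JAK1 201648_at. Over all 54613 probe sets, 1212 were then called higher in Huh7 and 1189 lower, against 3737 and 3819 in the main fit.

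LIF itself was 1.66-fold higher in Huh7 than in Hep3B in ATO cells and 1.24-fold in NC cells, a difference of 0.40 ± 0.13 in limma (adjusted p = 0.199). IL6ST and TYK2 were near equal in the lines, the brightest IL6ST probe set at 0.853-fold in ATO and 0.920-fold in NC cells and TYK2 at 0.871-fold and 0.861-fold. For SOCS3, 227697_at was 4.68-fold higher in Huh7 in ATO cells and 2.52-fold in NC cells, with an adjusted p of 0.125 in limma. It passed 0.05 under 4 alternatives, among them limma without an offset (adjusted p = 0.001), with which 13 member probe sets were called. Over all 54613 probe sets, 6602 were then called higher in Huh7 and 6734 lower, against 3737 and 3819 in the main fit. JAK2 205841_at, lower in Huh7, and LIFR 205876_at, higher in Huh7, passed 0.05 under 3 alternatives.

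**Figure D3:**
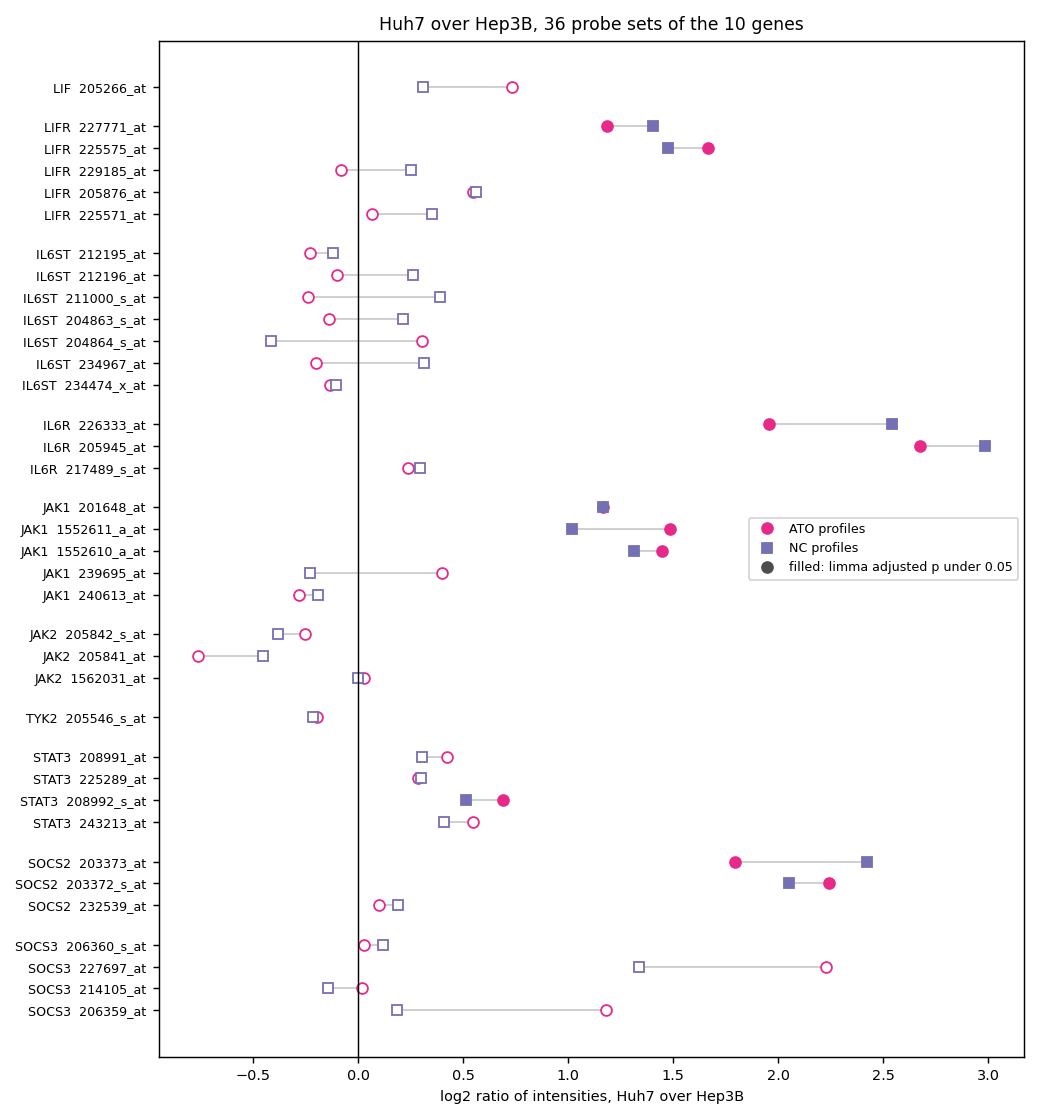
Log2 ratio of intensities, Huh7 over Hep3B, for the 36 probe sets, in ATO profiles (circles) and NC profiles (squares), with filled symbols where limma gave an adjusted p under 0.05. The 10 filled probe sets all lie above 0, those of IL6R farthest out in the NC profiles, and those of IL6ST and TYK2 lie near 0.

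To set the 10 genes within their pathway, 61 other genes were listed by role, of which 55 were analysed, each from its brightest probe set. The lists were written with earlier results of these data known, so the counts taken from them are description and test nothing. Above 1.5 in both lines were 3 of the 55, against 0.804% of all genes, and below 0.67 in both were 0, against 0.587%. All 3 were in the list of STAT3 target genes. PIM1, a survival kinase, read 113 in ATO and 56.8 in NC Huh7 cells, and 124 in ATO and 62.0 in NC Hep3B cells, a ratio of 1.996 in each line. KLF4, a transcription factor, read 253 in ATO and 86.9 in NC Huh7 cells, and 40.8 in ATO and 15.2 in NC Hep3B cells, with ratios of 2.91 and 2.69. Its value in NC Hep3B cells lay below the median of that profile. SERPINA3, the acute phase protein alpha-1-antichymotrypsin, read 31.1 in ATO and 19.6 in NC Huh7 cells, and 241 in ATO and 96.2 in NC Hep3B cells, with ratios of 1.59 and 2.50. As with LIF, no limma test of these genes for ATO minus NC passed 0.05 after adjustment.

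Of the 25 measured STAT3 target genes, 14 were higher in ATO cells in both lines and 2 were lower in both, against 32% and 24.7% of all genes. The rest moved in opposite directions in the lines. The median of the 25 log2 ratios was 0.27 in each line, against 0.01 and 0.04 over all genes read in this way. As this list too was written with earlier results known, these values do not test whether STAT3 targets rose. The list holds acute phase genes as well as genes of growth and survival, and many of them are known to answer to other factors than STAT3. The lowest by its mean was A2M, a protease inhibitor of the acute phase in rats, with 3472 in ATO and 5663 in NC Huh7 cells, and 793 in ATO and 1144 in NC Hep3B cells.

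For the counts of the other lists, the shares over all genes were 32% higher in both lines and 24.7% lower in both. Among the other IL6 family ligands, of which 3 of 7 measured were bright, 4 were higher in both lines and none lower in both. Ratios were 1.82 and 1.04 for EBI3, a subunit of interleukin 27 that lay below the median in Hep3B, and 0.718 and 1.03 for the dim CNTF. No receptor of the family outside the 10 genes was higher in both lines and 2 of 4, neither of them bright, were lower in both. The highest by its mean was IL27RA, with ratios of 0.790 and 1.69, and the lowest IL11RA, with 0.527 and 1.10. Of the other JAK and STAT genes 1 of 5 was higher in both lines, STAT5B at 1.08 and 1.26, and STAT6 had the highest mean, with ratios of 0.904 and 1.51. STAT5A, the only one of the 5 with a mean below 0, had ratios of 0.913 and 1.04. Among the other inhibitors 4 of 14 were higher in both lines and 5 lower, CISH, a relative of SOCS2, standing highest at 1.20 and 1.24 and SOCS5 lowest at 0.824 and 0.801, both of which turned above 1 with the poly-A scaling.

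Huh7 minus Hep3B was called in limma for 15 of these 55 genes, 6 of them higher in Huh7, against 19.7% of all genes read from their brightest probe set in the same fit. OSMR, the receptor chain for oncostatin M that also pairs with gp130, was singled out after its values were seen. It read 563 in ATO and 577 in NC Huh7 cells, against 8.03 in ATO and 10.4 in NC Hep3B cells (adjusted p = 0.019).

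**Figure D4:**
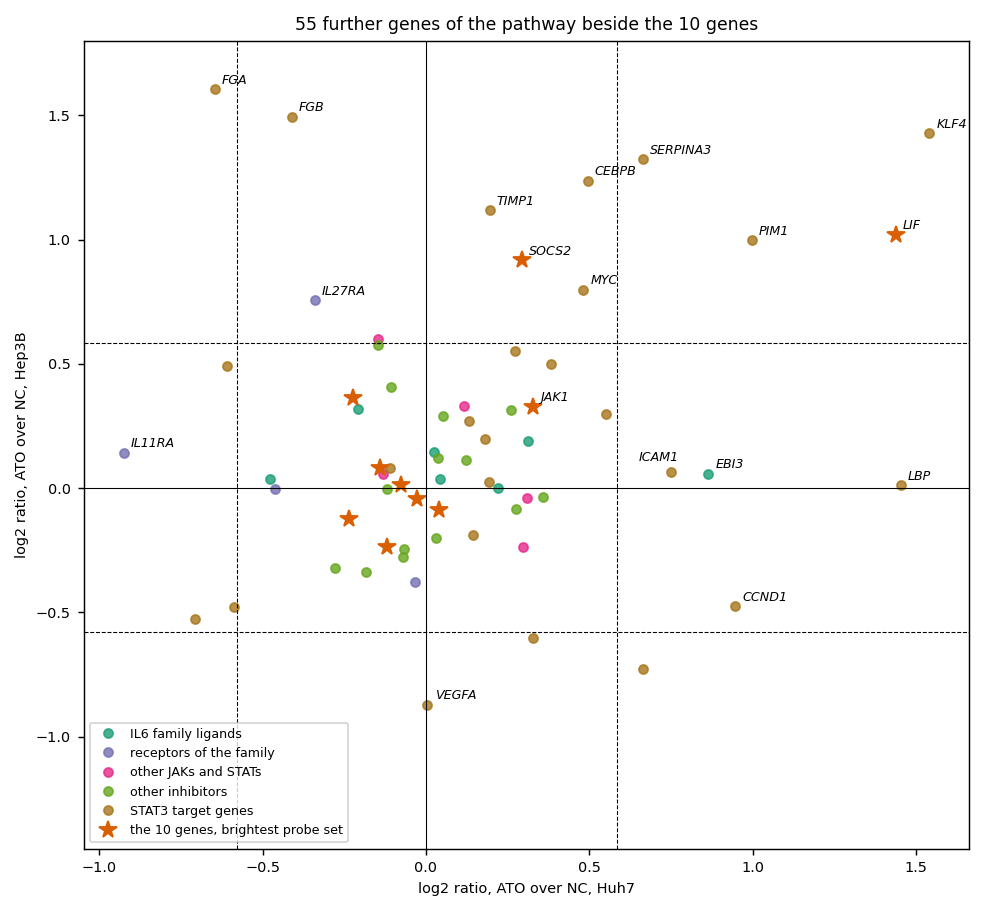
Log2 ratio of ATO over NC in Huh7 (horizontal) and Hep3B (vertical) for the 55 other genes of the pathway (points, colored by list) and the 10 genes (stars), each read from its brightest probe set, with dashed lines at 1.5 and 0.67. LIF lies in the upper right corner with KLF4, PIM1 and SERPINA3, and most of the other stars lie near the center. Names are given to JAK1, SOCS2 and the genes past 1.5 in both lines or beyond 0.75 in either.

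The genes whose 4 values were most like those of LIF were found by the distance between log2(intensity + 16) values centered on their mean, over 4 profiles and 19774 genes. The nearest was FHL2, a LIM domain protein, at a distance of 0.08 against a median of 1.03. It read 112 in ATO and 41.2 in NC Huh7 cells, and 64.5 in ATO and 32.2 in NC Hep3B cells. The next were PAPSS2, NDRG4, SRXN1 and SPRY4-IT1, with distances of 0.13 to 0.28. For JAK1 the nearest were MYO1E, MGAT5, AHCYL1, GAREM1 and NDUFV2, at 0.07 to 0.09 against a median of 1.19. Each of these had a higher value in both ATO profiles than in the NC profile of the same line, as LIF and JAK1 did. That follows from their choice by likeness, and with 4 profiles many genes can share such a pattern.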

How the data were processed

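Per the study's methods, the authors summarized the raw scans by RMA in simpleaffy, then took logs and applied a quartile normalization. Each deposited value is a linear intensity of 1 probe set, and the return from the log scale is not described in the sources used here. The version of simpleaffy is not given in the sources used here. The 62 control probe sets were left out. Of the others, 41091 had 1 gene symbol, 1801 several, and 11721 are unnamed here.

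The ratio of ATO over NC was taken within each line, with thresholds of 1.5 and 0.67. limma 3.58.1 in R 4.3.3 was fitted to log2(intensity + 16) with cell line and treatment, with Benjamini-Hochberg adjustment over 54613 probe sets and a threshold of 0.05. The fit was run on simulated data with added changes, and their recovery was required only where the noise was set small. How many would be recovered at the noise of these data is not given here. Ratios were computed with pandas 2.3.3. All 36 member probe sets are reported. Of the wider lists, genes past a threshold in both lines and the highest and lowest mean of each list are named, and for LIF and JAK1 the 5 nearest genes. Members and lists were chosen with earlier results of these data known. Alternatives covered scaling, offset, threshold, choice of probe sets, prior and a line left out. Sequences came from the study's primer list and RefSeq. The remaining listed genes were not analysed here. With 1 profile per line and treatment, the number of arrays limits the precision.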

Additional observations from a re-analysis of the deposited data

Results flagged for a closer look

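In 12 of the 36 probe sets the ATO profile lay on one side of the NC profile in Huh7 and on the other in Hep3B, and opposite directions were seen in 44.6% of all probe sets. With 1 profile per line and treatment, the difference between the lines was not tested. Of the 5 bright ones, the log2 ratio in Huh7 and in Hep3B was -0.22 and 0.36 for IL6R 226333_at and -0.20 and 0.11 for IL6R 205945_at. It was -0.27 and 0.09 for IL6ST 212196_at, and -0.11 and 0.53 for IL6ST 211000_s_at. For SOCS3 206360_s_at it was -0.08 and 0.01, values that differ little from each other.

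The other 7 were below the median in every profile. The widest gap was that of SOCS3 206359_at, at 0.89 in Huh7 and -0.10 in Hep3B. For IL6ST the values were 0.45 and -0.26 in 204864_s_at, and -0.40 and 0.11 in 234967_at. LIFR had -0.14 and 0.08 in 227771_at, and -0.03 and 0.25 in 225571_at. JAK2 had 0.04 and -0.09 in 205842_s_at, and -0.15 and 0.16 in 205841_at.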

How the results depend on the processing

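The member probe sets above 1.5 in both lines, 1 without other scaling, numbered 8 when profiles were scaled to the poly-A controls. In Huh7 alone there were 6 (2.85% of all probe sets) and in Hep3B alone 2 (4%). The wider genes above 1.5 in both lines, 3 in the report, numbered 8 with the poly-A scaling and 1 with thresholds of 2 and 0.5. The poly-A scaling raises the log2 ratios of all probe sets. Shares over all probe sets or genes are not given here for it or for the thresholds of 2 and 0.5. For Huh7 minus Hep3B, limma called 10 member probe sets, but 2 with an offset of 64 and 4 with 1 probe set per gene, of 10 genes then tested. Calls over the whole table moved as well. Of 54613 probe sets, 3737 were called higher and 3819 lower in the main fit, and 1212 and 1189 with an offset of 64. With 1 probe set per gene, 2403 were called higher and 2403 lower, of 19775. ATO minus NC had 0 member calls in limma under all 11 alternatives, with 2 to 11 probe sets at an unadjusted p under 0.05. The 11 came with the poly-A scaling. Of all 54613 probe sets, 14748 then had such a p with a higher value in ATO cells, and 271 with a lower one. Without the cell line as a replicate block there were 0 calls as well, and the lowest adjusted p was 0.99997. The adjusted p of LIF ranged from 0.094 to 0.99997 and its difference from 0.52 to 1.23. The lowest came with no offset and a prior with an intensity trend, a setting chosen after seeing the data, under which 26 probe sets of the whole table were called higher and 18 lower. Quantile normalization and centring on the median each changed the sign of the mean log2 ratio in 1 of 36 member probe sets and in 0 of the 16 bright ones. Probe sets, dim or bright, have no detection call here, which limits what those of LIFR, JAK2 and SOCS3 can show.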
